A study of Mus musculus with 5 samples.

Results

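Zbtb11, Zfp131 and Zbtb10 were followed guide by guide through a pooled knockout screen of mouse ES (embryonic stem) cells. All guides listed under these 3 genes, as ZBTB11, ZFP131 and ZBTB10, were taken, which gave 30 of the 17820 guides in the library, 10 for each gene. The rest of the library holds guides to the other genes among 1682, mostly regulators of transcription and chromatin, and 1000 non-targeting guides, which match no intended gene and serve as controls. Zbtb11 and Zfp131 appear in the study's title and Zbtb10 in its description of the design, so the study itself chose all 3.

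A lentiviral vector brings a guide RNA into each cell, where it directs the nuclease Cas9 to the matching gene. Sequencing the guides gives the share of reads on each, a measure of its share among the cells. There were 5 libraries. The plasmid pool was sequenced as 2 libraries (replicates 1 and 2), and the transduced cells as 1 library each at day 5, day 8 and day 12. All cell libraries share the genotype label Ainv15(iNgn2 Tubb3::GFP), an ES line whose label names an inducible Ngn2 cassette and a Tubb3 reporter, and all were kept in ES cell medium with Zeocin at 50 ng per µL from the selection step on. They also share the treatment label "No treatment". The plasmid libraries carry the same cell type and genotype labels, although their titles call them Maxiprep DNA of the library. Days are counted from transduction in the sample titles, whereas the protocol starts its count at selection. The day numbers therefore serve as names of the libraries, and as values only in the trend over days. The sources used here give neither the origin of Cas9 nor the number of cultures behind the 3 time points. Guide counts hold no RNA levels, so the ES identity could not be checked against marker genes.

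All 3 genes code for BTB zinc-finger proteins. The BTB domain at one end of such a protein lets it pair with itself or with partner proteins, and the zinc fingers at the other end bind DNA. Many members of this family recruit corepressors, and several are known from blood cell development. RNA polymerase II pausing, which the study's title refers to, is the halt of the polymerase shortly after it starts a transcript. The complexes NELF and DSIF hold it there until the kinase P-TEFb releases it.

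The guides that the results below turn on are shown first. Numbers follow the order of the guides in the deposited tables. Each is written 5′ to 3′, and the capitals mark the 10 bases next to the PAM, the short motif that Cas9 needs beside its target. In Zbtb11, the gene with the deepest losses, guides 5 and 8 ended lowest, guides 3 and 4 share most of their target, guide 1 had the flattest course and guide 2 was higher at day 12 than at day 8:
Zbtb11 guide 1: aggagcagttTCTAGTCACG
Zbtb11 guide 2: tgtcaagcggAAGATCCGCA
Zbtb11 guide 3: gcgggaccctCTACTACCAG
Zbtb11 guide 4: ggaccctctaCTACCAGCGG
Zbtb11 guide 5: cgtcacattgCTCATCGAGG
Zbtb11 guide 8: gcaccgagggCAATGTCAAG
In Zfp131, guides 1 and 2 were the lowest analysed guides at all 3 days, guide 4 was the highest at day 12, and guides 8 and 9 share part of their target:
Zfp131 guide 1: gttctttaaaGTGTCCAAAG
Zfp131 guide 2: ctccagtttgGCATGCAGTG
Zfp131 guide 4: ggtatcttcgAGAGAGTGCG
Zfp131 guide 8: atctgcagaaTCAGAACCTG
Zfp131 guide 9: agaacctgtgGAAATTGAGG
In Zbtb10, guide 7 was the deepest of those analysed, guides 4 and 9 point at each other from opposite strands, and guides 3 and 5 were nearest to their plasmid level at day 12:
Zbtb10 guide 3: tctttgtgatGTCAGCATTG
Zbtb10 guide 4: cttgagccaaGAGGTCTGGA
Zbtb10 guide 5: agaaacggctGCCTGCAACC
Zbtb10 guide 7: gaactgcagcAATATCTAAG
Zbtb10 guide 9: agtgctccttCCAGACCTCT

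The genes lie, in the RefSeq table of build GRCm38.p6 (the NCBI name of mm10), on chromosome 16 from 55971437 to 56008913 for Zbtb11, on chromosome 13 from 119765186 to 119791477 for Zfp131 and on chromosome 3 from 9250567 to 9285333 for Zbtb10. The exon that each guide meets was not analysed here. None of the 30 guides matched the 3 RefSeq promoter windows given for Zbtb11 and Zfp131, on either strand. The nearest other guide in the library differed from a member guide at 5 to 8 of its 20 bases.

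The plasmid libraries held 3541896 and 1350234 reads, and the cell libraries 1063071 (day 5), 1082489 (day 8) and 1008492 (day 12). A guide was analysed if it had at least 30 reads in each plasmid library, which kept 15336 guides, 24 of them members, 8 per gene. Values are CPM, reads divided by a library total that was scaled with TMM, which sets libraries level on the bulk of their guides. A change is the log2 ratio of CPM plus 1 over the mean plasmid CPM plus 1. The plasmid libraries give the sole replicate error: over the kept guides their log2 values differed with an SD of 0.29, and over the kept guides of Zbtb11, Zfp131 and Zbtb10 with SDs of 0.39, 0.36 and 0.26. With 1 library per time point no day has a test of its own. The intervals given are exact 95% intervals of read ratios and cover counting error only. Guides to a gene share their target and are not replicates of a condition.

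The non-targeting guides set the background. Over 893 guides their median log2 changes were 0.41, 0.54 and 0.58 (days 5, 8 and 12), above the typical guide to a gene at −0.02, −0.04 and −0.07. Scaling on the non-targeting guides instead puts the median of all genes at −0.40, −0.52 and −0.58, so levels below are relative to the typical gene. From the 2.5th to the 97.5th percentile they ran from −1.11 to 1.24 at day 5, from −1.01 to 1.38 at day 8 and from −1.10 to 1.74 at day 12. Of these control guides 3.36%, 2.69% and 3.36% were at a log2 change of −1 or lower.

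Of the 24 kept member guides, 10 were at a log2 change of −1 or lower at day 5, where 12.9% of all kept guides to genes were. At day 8 it was 13 guides, against 17.9%, and at day 12 it was 20 guides, against 21.5%. At day 12, 18 of the 24 lay under the 2.5th percentile of the non-targeting guides (19.9% of all guides to genes did) and 9 lay under every non-targeting guide (5.54%). At day 8, 10 lay under every non-targeting guide (7.1%). At least 1 guide of each gene was not below 0 at day 5, when 7.25% of genes had every kept guide below 0.

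Guides to Zbtb11 were depleted in all 3 cell libraries. The median log2 change was −1.45 at day 5 (SD 0.90 over 8 guides), −2.73 at day 8 (SD 1.18) and −3.28 at day 12 (SD 1.34). The number of guides at −1 or lower was 6, then 7, then 8 of 8, against 12.9%, 17.9% and 21.5% of all guides to genes. At day 12 every kept guide was at −1 or lower in 42 of the 1682 genes. At day 12 all 8 lay under the 2.5th percentile of the non-targeting guides and 6 under every non-targeting guide. The gene's median ranked 50 from the bottom of 1682 genes at day 5, 25 at day 8 and 21 at day 12. A median of −1 or lower was seen in 6.3%, 12.1% and 15.8% of genes at these days.

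Zbtb11 guide 5, the most abundant of the gene in the plasmid pool, stood at 107 and 141 CPM in plasmid libraries 1 and 2, at 30.8 CPM at day 5, at 3.82 at day 8 and at 3.27 at day 12. Its log2 change at day 12 was −4.87, with an interval from −7.44 to −3.60. Its reads went from 371 and 188 in the plasmid libraries to 3 at day 12, and most of the decrease lay before day 8. Zbtb11 guide 8 stood at 62.3 and 64.4 CPM in the plasmid libraries and at 33.7, 5.73 and 1.09 CPM at days 5, 8 and 12. It was the lowest at day 12, at −4.94, but that value rests on 1 read, and its interval ran from −11.16 to −3.36. With 3 reads and 1 read at day 12, it cannot be read whether guides 5 and 8 ended alike. At day 5 guide 5 was at −1.97 and guide 8 at −0.89. Their intervals there, from −2.48 to −1.40 and from −1.45 to −0.39, overlap at their edges.

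Zbtb11 guide 3 was the lowest of the gene's kept guides at day 5. It stood at 56.3 and 41.9 CPM in the plasmid libraries and at 4.82, 4.77 and 3.27 CPM at days 5, 8 and 12, which is 5, 5 and 3 reads. Zbtb11 guide 4, whose target is shifted from that of guide 3 by 3 bases, stood at 47.6 and 34.4 CPM in the plasmid libraries and at 13.5, 8.59 and 3.27 CPM at days 5, 8 and 12. Both had 3 reads at day 12, and they differed more at day 5, at −3.11 with an interval from −5.08 to −2.20 for guide 3 and −1.54 with an interval from −2.60 to −0.93 for guide 4. These intervals overlap.

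Zbtb11 guides 7 and 10 were close to each other at day 12, on 5 and 4 reads. Guide 7 stood at 53.7 and 60.6 CPM in the plasmid libraries and at 26.0, 10.5 and 5.45 CPM at days 5, 8 and 12. Guide 10 stood at 63.2 and 37.4 CPM and then at 18.3, 14.3 and 4.36 CPM. At day 12 they were at −3.17 and −3.26, close to the gene's median. The counting interval lay below 0 from day 5 to day 8 for guide 7 alone of these guides, and from day 8 to day 12 for guide 10 alone. From day 5 to day 8 the intervals ran from −2.47 to −0.25 for guide 7 and from −1.43 to 0.70 for guide 10. From day 8 to day 12 they ran from −2.82 to 0.70 and from −3.77 to −0.07. They overlap in both steps, so different courses are not shown. Guide 10 had the widest gap between plasmid libraries among the kept guides of the gene, −0.74 on the log2 scale (replicate 2 minus replicate 1), so its starting level is the least sure.

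Zbtb11 guides 1 and 2 were the shallowest at day 12. Guide 1 stood at 52.2 and 40.4 CPM in the plasmid libraries, at 48.2 at day 5, at 24.8 at day 8 and at 15.3 at day 12. It was the sole kept guide of the gene with a log2 change not below 0 at day 5, at 0.06, and it reached −1.54 at day 12. Against the pooled plasmid reads, 98.4% of its plasmid share was left at day 5. The interval, from −0.49 to 0.42, is on those pooled reads. Guide 2 took another course, at 81.7 and 90.6 CPM in the plasmid libraries and 29.9, 6.68 and 36.0 CPM at days 5, 8 and 12. Its reads were 31, 7 and 33, and day 12 was higher than day 8 by 2.27 on the log2 scale, with an interval from 1.23 to 3.85. It was the only kept guide among the 24 whose counting interval from day 8 to day 12 lay above 0. The share of all guides to genes with such an interval was not counted. At day 12 guide 2 held 50.0% of all reads on the gene's kept guides.

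The reads of Zbtb11 summed over its 8 kept guides were 1816 and 682 in the plasmid libraries and 213, 83 and 66 at days 5, 8 and 12. That left 39.4% of the plasmid share at day 5, 15.2% at day 8 and 13.8% at day 12, with an interval at day 12 from 10.7% to 17.7%. Without guide 2 the summed share left at day 12 was 8.25%, with an interval from 5.66% to 11.6%, on 33 reads. The median over guides hardly depended on it, at −3.30 without guide 2.

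The pair of Zbtb11 guides left out for low plasmid reads was not tested and had few reads at the later days. Guide 6 had 103 and 29 reads in the plasmid libraries and 4, 0 and 1 at days 5, 8 and 12. Guide 9 had 89 and 29 reads and then 18, 3 and 3. A count of 0 at day 8 allows up to 3 reads, or 2.86 CPM, against 29.7 CPM for guide 6 in plasmid library 1.

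Guides to Zfp131 were lower than in the plasmid pool at every time point, with a wide spread. The median log2 change was −0.87 at day 5 (SD 1.18 over 8 guides), −1.30 at day 8 (SD 1.74) and −1.56 at day 12 (SD 1.19). All 8 guides were below 0 at days 8 and 12, as was the case for every kept guide of 11.1% and 11.2% of genes. At day 12 7 of 8 were at −1 or lower, and 5 were under the 2.5th percentile of the non-targeting guides. Of all guides to genes 21.5% and 19.9% were. The day 8 median depended on the guides used, at −2.11 with no read filter, −0.89 with at least 100 plasmid reads and −1.89 as a mean. The median SD over guides was 0.62 at day 8 over all genes and 1.11 over the 204 genes with a median of −1 or lower.

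Zfp131 guides 1 and 2 were the lowest kept guides of the gene at all 3 days. Guide 1 stood at 42.1 and 30.7 CPM in the plasmid libraries and at 2.89, 0 and 1.09 CPM at days 5, 8 and 12, which is 3, 0 and 1 reads. Guide 2 stood at 34.9 and 41.9 CPM in the plasmid libraries and at 6.75, 2.86 and 3.27 CPM at days 5, 8 and 12. At day 5 they were at −3.27 and −2.35, and guide 1 lay under every non-targeting guide, as 1.27% of guides to genes did. With 7 reads or fewer, no order can be read among the later values of either guide.

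Zfp131 guides 6 and 7 lay between at day 12, although guide 7 was close to guide 2 at day 5. Guide 6 stood at 45.9 and 42.7 CPM in the plasmid libraries and at 21.2, 13.4 and 8.72 CPM at days 5, 8 and 12, lower in each later library, and reached −2.22. Guide 7, the most abundant Zfp131 guide in plasmid library 1 at 138 CPM, was at 109 CPM in library 2 and at 25.1, 19.1 and 30.5 CPM at days 5, 8 and 12. It was already at −2.25 at day 5, and at day 12 it was at −1.98. The step from day 8 to day 12 was 0.65, with an interval from −0.20 to 1.58 that includes 0.

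Zfp131 guides 4, 5, 8 and 9 were the shallow ones, with 44.9% to 49.0% of their plasmid share left at day 12. Guide 4 stood at 52.8 and 38.9 CPM in the plasmid libraries and at 49.1, 39.1 and 24.0 CPM at days 5, 8 and 12. Guide 5 stood at 82.3 and 118 CPM and then at 75.2, 51.6 and 44.7 CPM. Those guides stayed near their plasmid level at day 5, at 0.10 and −0.41, with intervals that include 0. Guide 8 stood at 104 and 115 CPM in the plasmid libraries and at 80.0, 85.9 and 52.3 CPM at days 5, 8 and 12. Guide 9 stood at 103 and 82.3 CPM and then at 55.9, 53.5 and 43.6 CPM. All 4 shallow guides ended between −1.15 and −0.91, which is below the median non-targeting guide and near the 2.5th percentile of −1.10.

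Both Zfp131 guides left out for low plasmid reads had no read at day 12. Guide 3 had 49 and 17 reads in the plasmid libraries and 5, 0 and 0 at days 5, 8 and 12, and guide 10 had 73 and 24 reads and then 10, 2 and 0. With no read filter the median of Zfp131 was −2.06 at day 12 over 10 guides, against −1.56 over 8. With at least 100 plasmid reads 4 guides were left, at −1.16. Summed over the 8 kept guides, reads went from 2088 and 772 to 328, 278 and 191, which left 53.1% of the plasmid share at day 5, 44.6% at day 8 and 34.9% at day 12, with an interval at day 12 from 30.0% to 40.5%.

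Guides to Zbtb10 were close to their plasmid level at day 5 and lower at day 12. The median log2 change was −0.20 at day 5 (SD 0.59 over 8 guides), −0.56 at day 8 (SD 0.88) and −1.24 at day 12 (SD 1.11). None of the 8 guides was at −1 or lower at day 5, 2 were at day 8 and 5 at day 12. Of all guides to genes 12.9%, 17.9% and 21.5% were, so the count at day 8 was near that of the library. Summed reads were 1334 and 524 in the plasmid libraries and 389, 291 and 151 at days 5, 8 and 12. That left 96.9% of the plasmid share at day 5, with an interval from 86.6% to 108% that includes no change, 71.8% at day 8 and 42.5% at day 12, with an interval from 35.8% to 50.2%. These levels depend on the scaling: on the non-targeting guides the median over guides was −0.61 at day 5 and −1.09 at day 8.

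Zbtb10 guide 7 was the deepest kept guide of the gene and was lower in each later library. It stood at 60.0 and 50.9 CPM in the plasmid libraries and at 28.9, 10.5 and 4.36 CPM at days 5, 8 and 12, and ended at −3.40 with an interval from −5.61 to −2.35. Guides 4 and 10 had 68.7% and 53.4% of their plasmid share left at day 8 and 20.6% and 16.4% at day 12. Guide 4 stood at 55.7 and 65.1 CPM in the plasmid libraries and at 51.1, 40.1 and 12.0 CPM at days 5, 8 and 12, and guide 10 at 48.8 and 40.4 CPM and then at 39.5, 24.8 and 7.63 CPM. From day 8 to day 12 their log2 differences were −1.66 and −1.58, with intervals from −2.85 to −0.76 and from −3.15 to −0.46. Together with guide 5, 3 of the 8 Zbtb10 guides had an interval below 0 in this last step, against 8.48% of all guides to genes.

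Zbtb10 guides 1 and 9 ended near the edge of the non-targeting range. Guide 1 stood at 32.0 and 29.9 CPM in the plasmid libraries and at 22.2, 10.5 and 12.0 CPM at days 5, 8 and 12, and ended at −1.30. Guide 9 stood at 58.0 and 53.9 CPM and then at 72.3, 38.2 and 24.0 CPM, and ended at −1.19. Guide 9 was above its plasmid level at day 5, at 0.36, with an interval from −0.04 to 0.72 that includes 0.

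Zbtb10 guides 2, 3 and 5 stayed within the non-targeting range at day 12, between −0.55 and −0.30, but in its lower part. Of the 893 non-targeting guides, 69, 102 and 86 were lower than guides 2, 3 and 5 at day 12. Guide 2 stood at 51.4 and 58.4 CPM in the plasmid libraries and at 60.7, 50.6 and 37.1 CPM at days 5, 8 and 12. Guide 3 stood at 36.7 and 52.4 CPM and then at 25.1, 43.9 and 36.0 CPM. It was the only kept member guide whose interval from day 5 to day 8 lay above 0, from 0.09 to 1.56. How many of all guides to genes had an interval above 0 in this step was not counted. Guide 5 stood at 42.4 and 41.2 CPM in the plasmid libraries and at 75.2, 59.2 and 31.6 CPM at days 5, 8 and 12. It was higher at day 5 than in the plasmid pool, at 0.83, and 769 of the 893 non-targeting guides were lower than it there. The left-out guide 6 had 109 and 22 reads in the plasmid libraries and 16, 10 and 5 at days 5, 8 and 12, and the left-out guide 8 had 52 and 24 reads and then 16, 4 and 2.

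The trend over days, with the plasmid libraries at day 0, was the test the 5 libraries allow. It took the day numbers of the titles as values, and no other count of days was tested. Its slopes, SEs and p-values therefore rest on that spacing. It used edgeR's quasi-likelihood test with 3 residual degrees of freedom and Benjamini-Hochberg adjustment over all 15336 guides, or over all 1682 genes for reads summed over the guides of a gene. Its spread comes from the plasmid libraries and from how far values lie off a line over days, and not from separate cultures. The test draws each estimate of spread toward those of the other guides or genes. Its p-values therefore rest on more than the 3 residual degrees of freedom. It called 24% of guides to genes lower and 16.1% higher, and of the non-targeting guides 4.82% lower and 45.5% higher. Of the 24 member guides 19 fell in this test and none rose. To fall here means a negative slope from the plasmid level, which a decrease before day 5 alone can give.

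All 8 kept Zbtb11 guides fell, with slopes from −0.48 to −0.12 log2 units per day. Among them was guide 2, although its day 12 value was above its day 5 value by 0.26, with an interval from −0.48 to 1.02. The steepest was guide 5 (−0.48, SE 0.04, edgeR adjusted p = 1.2e-06) and the flattest was guide 1 (−0.12, SE 0.03, edgeR adjusted p = 0.0121). Of the Zfp131 guides 7 of 8 fell. Zfp131 guide 1 had the steepest slope of all 24, −0.65 (SE 0.08, edgeR adjusted p = 1.94e-05). That slope rests on 3, 0 and 1 reads at days 5, 8 and 12. Its log2 change at day 12, −4.16, was less deep than those of Zbtb11 guides 5 and 8. Zfp131 guide 4 did not pass, with −0.06 (SE 0.03, edgeR adjusted p = 0.116). Of the Zbtb10 guides 4 of 8 fell, guides 1, 4, 7 and 10, with guide 7 steepest at −0.28 (SE 0.04, edgeR adjusted p = 3.98e-05). Guides 2, 3, 5 and 9 did not pass, and guide 9 was nearest to the threshold of 0.05 (−0.08, SE 0.03, edgeR adjusted p = 0.0562).

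On reads summed per gene, all 3 genes fell. Of the 1682 genes 25.2% (424) fell and 34.7% (584) rose. With non-targeting scaling 1068 fell and 19 rose, so which genes rose depends on the scaling, while the 3 members fell under both. The slope was −0.26 per day for Zbtb11 (SE 0.025, edgeR adjusted p = 7.5e-05), −0.13 for Zfp131 (SE 0.0134, edgeR adjusted p = 8.83e-05) and −0.09 for Zbtb10 (SE 0.0205, edgeR adjusted p = 0.00559). When the 3 cell libraries were set against the 2 plasmid libraries in place of the trend, Zbtb10 no longer passed, with a log2 difference of −0.51 (edgeR adjusted p = 0.237), and its adjusted p ranged from 2.01e-05 to 0.237 over the alternatives. Without the day 12 library its slope was −0.05 (edgeR adjusted p = 0.0245). Zbtb11 and Zfp131 passed in every alternative run, with adjusted p up to 0.0169 and 0.00948.

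The order at day 12, Zbtb11 lowest, then Zfp131, then Zbtb10, was the same at days 5 and 8. For the summed share left at day 12, the interval of Zbtb11 lay below those of the other two genes, and the intervals of Zfp131 and Zbtb10 overlapped. Single guides did not keep the order, since at day 12 guides of Zbtb11 ran from −4.94 to −1.24, those of Zfp131 from −4.16 to −0.91 and those of Zbtb10 from −3.40 to −0.30. No difference between the genes was tested, because each is measured in the same 5 libraries with guides that are not replicates.

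The steps between time points were described in the same way and not tested between genes. From day 5 to day 8 the median change over guides was −1.08 for Zbtb11, −0.46 for Zfp131 and −0.50 for Zbtb10, and from day 8 to day 12 it was −0.75, −0.25 and −0.77. From day 5 to day 8 the counting interval lay below 0 for 5 of 8 Zbtb11 guides, 1 of 8 Zfp131 guides and 2 of 8 Zbtb10 guides, against 11.4% of all guides to genes. From day 8 to day 12 it lay below 0 for 1, 1 and 3 of them, against 8.48%. Lower values in every later library, from plasmid through day 12, were seen in 6 of 8 Zbtb11 guides, 3 of 8 Zfp131 guides and 3 of 8 Zbtb10 guides, against 15.1% of all guides to genes and 2.13% of non-targeting guides. This count takes any decrease, also one within counting error. Zbtb11 guide 3 is in it with 5 reads at both day 5 and day 8, a change of −0.01.

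The base composition of the guides overlapped between the genes. Kept guides held 5 to 13 G or C bases in Zbtb11 (median 11), 7 to 11 in Zfp131 (median 9) and 8 to 12 in Zbtb10 (median 10.5). Non-targeting guides with more G and C were higher, by 0.125 log2 units per base at day 12. After a correction for this slope, 18 of 24 member guides were at −1 or lower at day 12, against 20 before it. At day 5 the correction moved the median of Zfp131 from −0.87 to −0.58.

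Some guides of a gene share part of their target, which allowed the PAM to be read from the neighbouring guide. Across the library 99.5% of the 4853 such readings, from overlaps of at least 8 bases, gave an NGG motif. Zbtb11 guides 3 and 4 overlap by 17 bases on the same strand, and the 3 bases after guide 3 are CGG. Their cuts, placed 3 bases before the PAM, lie 3 bases apart, and at day 12 they were at −3.55 and −3.30. Zfp131 guides 8 and 9 overlap by 8 bases on the same strand, with TGG after guide 8 and cuts 12 bases apart, and were at −1.05 and −1.07. Zfp131 guides 3 and 10, both left out for low plasmid reads, overlap by 10 bases from opposite strands. Neither had a read at day 12, so their values of −3.85 and −4.36 are set by their plasmid levels and the pseudocount. They do not show whether the 2 guides behaved alike.

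The differences were wider in other pairs. Zbtb10 guides 4 and 9 face each other from opposite strands with an overlap of 11 bases, AGG after guide 4, TGG after guide 9 and cuts 5 bases apart, and were at −2.24 and −1.19. Their counting intervals, from −3.30 to −1.42 and from −1.94 to −0.62, overlap. Zbtb10 guides 2 and 8 overlap by 12 bases on the same strand with cuts 8 bases apart, and were at −0.55 and −2.46. Guide 8 was left out for low plasmid reads and had 2 reads at day 12, and the intervals, from −1.09 to −0.01 and from −5.93 to −0.96, overlap. Over all kept overlapping pairs of the library the median difference at day 12 was 0.69, near the 0.73 over all kept pairs of guides to the same gene. The widest difference was in Zbtb11 guides 5 and 9, at −4.87 and −2.53, which matched over 8 bases on opposite strands. Both had 3 reads at day 12, so this difference is set by their plasmid levels. Their intervals, from −7.44 to −3.60 for guide 5 and from −5.21 to −1.33 for guide 9, overlap. This match gives CGG after guide 5 but AGC after guide 9, which is not the usual motif, and guide 9 was left out for low plasmid reads.

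The genes whose medians at days 5, 8 and 12 lay nearest to each member were found by Euclidean distance over these 3 values. They share the plasmid reference with the members. Nearest to Zbtb11 were Eaf1, a partner of ELL elongation factors (−1.45, −2.88 and −3.37, distance 0.18), Gtf3c3 of the polymerase III factor TFIIIC (distance 0.19) and the RNA-binding protein gene Sfpq (distance 0.20). Nearest to Zfp131 were the FACT histone chaperone gene Supt16 (−0.89, −1.44 and −1.53, distance 0.15), the COP9 signalosome gene Cops5 (0.17) and the splicing factor gene Cdc5l (0.18). Nearest to Zbtb10 were the zinc-finger gene Maz (−0.15, −0.52 and −1.17, distance 0.105), Ilf2 (0.11) and Snapc4 of the small nuclear RNA activating complex (0.14).

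Among genes of pausing and elongation, 25 of the listed genes were in the library, with a median over genes of −0.77 at day 12, against 0.01 over all 1682 genes. In the trend on summed reads 15 of them fell and 3 rose (Ell3, Tcea3 and Ints12), against 25.2% and 34.7% of all genes. With non-targeting scaling 23 fell and 1 rose, against 63.5% and 1.13% of all genes. All 4 NELF subunit genes fell. Their median log2 changes at days 5, 8 and 12 were −0.41, −0.93 and −0.77 for Nelfa, −0.28, −0.74 and −1.96 for Nelfb, −0.34, −1.83 and −1.25 for Nelfcd, and 0.0041, −0.64 and −1.33 for Nelfe. At day 12 all 4 NELF medians lay above that of Zbtb11, 3 of 4 lay above that of Zfp131, and that of Nelfcd was next to that of Zbtb10. The DSIF subunit genes Supt4a and Supt5 were at −1.14 and −1.36 at day 12 and also fell. Eaf1 was the lowest of the list at −3.37 and Ints12, an Integrator subunit gene, the highest at 1.76.

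Among the other BTB zinc-finger genes, 34 were in the library, with a median of 0.02 at day 12. In the trend 5 fell and 10 rose, where 25.2% and 34.7% of all genes did, and with non-targeting scaling 21 fell and 1 rose, where 63.5% and 1.13% of all genes did. At day 12, 2 had a median of −1 or lower. The lowest was Zbtb17, the MYC partner MIZ1, at −2.83, and the highest was Zbtb2 at 0.98, which did not pass in the trend. Zbtb17 lay between Zbtb11 and Zfp131 at day 12, and at day 5 its median was −0.61. Among 16 pluripotency genes the median was −0.52, and 9 fell and 5 rose. With non-targeting scaling 10 of the 16 fell and 0 rose, where 63.5% of all genes fell. Nr0b1 was lowest at −2.09 and Prdm14 highest at 1.58. The core factors were at −2.08 for Pou5f1, which codes for OCT4, −1.76 for Nanog and −0.35 for Sox2 at day 12, and all 3 fell in the trend. At day 12 the median of Zbtb11 was thus below, and that of Zfp131 above, those of Pou5f1 (5 kept guides) and Nanog (10 kept guides). The place of Zfp131 is not firm, since it was at −2.06 with no read filter and at −1.97 as a mean. Pou5f1 and Nanog are not given here in those settings.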

How the data were processed

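Per the file headers, the authors deposited raw counts of reads for each guide; all values are whole and library totals are unequal. The submitters' processing notes name cutadapt, Bowtie, featureCounts and build mm10, without versions. No source used here states how mismatches were handled. Library sizes over the kept guides were multiplied by TMM factors (edgeR 4.0.16 under R 4.3.3). Guides needed at least 30 reads in each plasmid library, and the pseudocount was 1 CPM. A fold change on this scale understates the loss of guides with few reads. Intervals are exact Clopper-Pearson intervals for day reads against the plasmid reads of both libraries (scipy 1.17.1); reads are not separate cells. Plasmid replicates differed more than sampling allows (chi-square over degrees of freedom 2.21) and were counted as 2 libraries. Nothing says that they came from separate preparations, so p-values measure the spread between these samples.

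Trends were fitted with glmQLFit and glmQLFTest on all libraries, with Benjamini-Hochberg adjustment and a threshold of 0.05. Tested on simulated data for the guide trend (15336 guides), the test called 92% of 50 guides at a slope of −0.15 and 100% of 50 at −0.3, with 6 false calls. The simulated courses were straight lines with the same dispersion for all guides and no change in most of them. The false calls therefore do not give the error rate in the real libraries. DESeq2 1.42.0 served as an alternative. Symbols came from RefSeq: 1661 matched directly and 21 by an older name. The named genes were the members, for each the 3 genes nearest by day medians, Pou5f1, Nanog and Sox2, and of each list the lowest, the highest and members past the trend threshold, of which some are counted without being named. Members and lists were chosen with earlier results of these data known.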

Additional observations from a re-analysis of the deposited data

How the results depend on the processing

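The alternatives were other scalings, pseudocounts and read filters, a GC correction, either plasmid library left out, another summary over guides and, for the trend, DESeq2, a group contrast and each library left out. No day median or summed trend of the 3 genes changed sign in the alternatives run on it; single guides were not rerun on the day values. Medians at day 12 moved by more than the counting error of the summed reads in these cases. For Zbtb11 (−3.28) they were −2.57 with a pseudocount of 5, −3.81 with non-targeting scaling and −2.85 as the ratio of summed counts. For Zfp131 (−1.56) they were −2.06 with no read filter, −1.16 with at least 100 plasmid reads, −2.15 with non-targeting scaling and −1.97 as the mean. For Zbtb10 (−1.24) they were −1.59 with no filter and −1.82 with non-targeting scaling. With at least 100 plasmid reads 6 member guides were left, of which 3, 3 and 6 were at −1 or lower at days 5, 8 and 12, against 10, 13 and 20 of 24. Zbtb10 had no guide above that minimum and so no value. The trend of Zbtb10 passed in every alternative except cells against plasmid (−0.51, edgeR adjusted p = 0.237). Member guides called lower numbered 13 to 25 over the alternatives, 25 of 30 with no filter. Over all guides to genes 3463 were called lower, 2196 without plasmid replicate 1 and 6556 with non-targeting scaling, and over genes 424 and, with that scaling, 1068. It took the share of lower among called genes from 42.1% to 98.3%. With either plasmid library left out, the day 12 medians ran from −3.55 to −3.15, from −1.68 to −1.59 and from −1.29 to −1.19 for the 3 genes in this order. With any library left out, trend slopes ran from −0.31 to −0.24, from −0.15 to −0.12 and from −0.10 to −0.05, and 15 to 20 member guides were called. Leaving out Zbtb11 guide 2 was chosen after seeing the data. No paired analysis was possible because each time point has 1 library. Guides under 10 reads at day 12 have intervals several log2 units wide, so depth limits their order.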
